A study of Mus musculus with 4 samples.

Results

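Glypicans and syndecans are the main families of heparan sulfate proteoglycans of the cell surface. Their genes in the mouse, Gpc1 to Gpc6 and Sdc1 to Sdc4, are 10 of the 18193 named genes and were read by 24 of the 45037 probe sets measured, 11 for glypicans and 13 for syndecans. The array reads an RNA through a set of short oligonucleotide probes, and a gene can have several such sets. Members were chosen by gene symbol, as every probe set annotated with that symbol alone, and the probe set with the highest mean of a gene leads its description. The choice of these families was made with results of the same arrays already known. Differences between the clones are therefore given as a description without a test.

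RNA was measured on 4 Affymetrix mouse arrays, 1 per culture. Clones E1 and C1 each received a Deaf-1 retrovirus in one culture (Deaf-1) and an empty retrovirus in another (control). All 4 cultures descend from mammary epithelial cells of Deaf-1-null origin that were immortalised with a retrovirus for the E6/E7 proteins of a human papilloma virus, and the RNA follows a 48 hour puromycin selection. Both clones thus lack endogenous Deaf-1, and each is a single clone, so that a difference between them cannot be told apart from the history of 1 isolate. The cells came from females 8 weeks old, by the study's methods, while its results describe a single mouse as their source. The strain of origin is not stated for them. Values are log2 expression, where a difference of 1 is 2-fold. A background level of 3.77 was set from 44 probe sets for olfactory receptors.

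Arrays of 1 clone correlated across probe sets at 0.992 (E1) and 0.994 (C1), and arrays of 1 retrovirus from different clones at 0.976 (Deaf-1) and 0.982 (control). Deaf1 (1448446_at) read 6.25 with the Deaf-1 retrovirus and 4.91 with the control retrovirus in E1, and 6.73 and 5.01 in C1. The labels do not say whether this probe set reads the deleted stretch. It was 1.53 higher with Deaf-1 (standard error 0.21), at an unadjusted p of 0.0012 and an adjusted p of 1 from limma. The labelled cell type was checked against its markers. Of 6 luminal epithelial markers, 4 lay above background on each E1 array and 2 on each C1 array (Krt19 and Epcam), and Cdh1, the epithelial cadherin, read 2.22 to 2.42. Of 4 basal or myoepithelial markers, 3 were above background on every array, among them Acta2 at 11.5 to 11.8. The remaining one, Krt14, was below it at 3.37 to 3.72. All 8 fibroblast or mesenchymal markers lay above background on every array, with Col1a1 at 12.5 to 12.8 and Vim at 12.13 to 12.82. The cells are called by their clone names below, since Cdh1, Krt18 and Krt14 were below background on every array. In RNA of a whole culture, fewer cells of a type and less RNA per cell cannot be told apart.

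In both families a core protein carries heparan sulfate, a long sulfated sugar chain that binds growth factors, morphogens and matrix proteins. Glypicans are held on the outer face of the membrane by a lipid anchor and regulate Hedgehog, Wnt, fibroblast growth factor and bone morphogenetic protein signalling. Syndecans cross the membrane, and their short cytoplasmic tails bind scaffold proteins and the cytoskeleton. In the mouse mammary gland Sdc1 is the main syndecan of the epithelium, and mice without it resist mammary tumours driven by Wnt1.

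Promoter sequences of RefSeq (build GRCm38.p6), 300 bases around the start of each gene, were at hand for 7 of the 10 members, Gpc2, Gpc3, Gpc4, Gpc5, Sdc1, Sdc3 and Sdc4. Of these, 4 are shown. Gpc3 and Gpc4 are neighbouring genes that were both higher in clone E1, Gpc5 was below background on every array, and Sdc1 was lower in clone E1. They lie at chrX:52613925-52614224 (minus strand), chrX:52164874-52165173 (minus strand), chr14:115091965-115092264 (plus strand) and chr12:8771146-8771445 (plus strand). Each is written 5′ to 3′ along its gene, and capitals mark TTCG or its reverse complement CGAA, the core of the sites that Deaf-1 binds.
Gpc3: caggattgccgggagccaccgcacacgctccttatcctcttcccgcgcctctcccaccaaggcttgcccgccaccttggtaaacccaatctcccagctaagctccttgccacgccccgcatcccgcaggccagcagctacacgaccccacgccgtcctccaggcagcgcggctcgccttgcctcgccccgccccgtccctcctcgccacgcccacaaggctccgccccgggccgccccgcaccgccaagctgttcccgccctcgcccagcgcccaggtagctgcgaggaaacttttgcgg
Gpc4: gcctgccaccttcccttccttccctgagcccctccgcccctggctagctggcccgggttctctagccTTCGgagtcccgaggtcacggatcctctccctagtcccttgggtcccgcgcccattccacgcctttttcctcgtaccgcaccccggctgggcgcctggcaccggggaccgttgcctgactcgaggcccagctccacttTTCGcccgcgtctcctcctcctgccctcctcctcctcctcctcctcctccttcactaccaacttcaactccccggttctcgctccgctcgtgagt
Gpc5: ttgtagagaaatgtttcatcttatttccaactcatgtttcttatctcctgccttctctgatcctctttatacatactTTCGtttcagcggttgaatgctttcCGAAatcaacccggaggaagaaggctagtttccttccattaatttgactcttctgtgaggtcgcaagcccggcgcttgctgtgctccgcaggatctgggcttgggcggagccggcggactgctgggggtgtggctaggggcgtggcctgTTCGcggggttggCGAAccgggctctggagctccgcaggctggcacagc
Sdc1: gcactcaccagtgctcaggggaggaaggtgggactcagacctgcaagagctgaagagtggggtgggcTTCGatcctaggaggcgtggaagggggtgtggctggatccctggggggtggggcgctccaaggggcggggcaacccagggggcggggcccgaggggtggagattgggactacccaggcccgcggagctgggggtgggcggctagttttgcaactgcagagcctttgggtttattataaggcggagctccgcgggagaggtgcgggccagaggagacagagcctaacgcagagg

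The Gpc3 window held 0 matches to TTCG on either strand, that of Gpc4 2, that of Gpc5 4 and that of Sdc1 1. Among 32851 promoter windows of the same length, 44.7% held at least 1 match, 16.7% at least 2 and 5.43% at least 3. The GC box GGGCGG, searched on both strands, was present 4 times for Gpc3, once for Gpc4, once for Gpc5 and 3 times for Sdc1. Of all windows 35.7% held it, and 10.7% held it at least 3 times. The dinucleotide CG occurred 30 times for Gpc3, 22 times for Gpc4, 17 times for Gpc5 and 14 times for Sdc1, against a median of 7 over all windows. These matches describe letters in the windows and are no evidence of binding.

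Where the clones were apart, glypican probe sets were higher in E1 and syndecan probe sets were lower. For 7 of 11 glypican probe sets both E1 arrays lay above both C1 arrays, and for 0 both lay below. For 9 of 13 syndecan probe sets both E1 arrays lay below both C1 arrays, and for 0 both lay above. Over all probe sets measured these shares were 22.8% above and 24.3% below. Among probe sets above background on all 4 arrays they were 27.6% above and 33.4% below. Of such member probe sets, 7 of 9 for glypicans lay above and 8 of 11 for syndecans lay below. The median difference, E1 minus C1, was 0.81 for the glypican probe sets and -0.38 for those of the syndecans, against 0.0045 over all 45037. Probe sets of 1 gene read the same RNA and are not independent of each other. Counted by the leading probe set of each gene, 4 of 6 glypicans were apart with E1 higher and 2 of 4 syndecans with E1 lower. The clones overlapped at the leading probe sets of Gpc2, Gpc5, Sdc3 and Sdc4, so the split does not hold for every gene of either family.

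A difference of at least 2-fold with the clones apart, and with at least 1 clone above background, was reached by 5 glypican probe sets with E1 higher, for Gpc1, Gpc3 and Gpc6, and by 0 syndecan probe sets. Which probe sets met it depended on single arrays. Without either the control array of E1 or that of C1, Gpc6 (1419688_at) no longer met it (0.64 and 0.9986) and Sdc4 (1417654_at) met it with E1 lower (-1.42 and -1.01). Over all probe sets 1.24% were higher and 1.41% were lower in E1 by this rule. Among the 23680 probe sets above background in a clone, which alone could meet it, 560 were higher and 633 were lower. The members nearest to the limit were Gpc6 (1419688_at) just inside, at 1.04, and Gpc4 (1421088_at) just outside, at 0.81. On the lower side Sdc2 (1417011_at) came nearest, at -0.79.

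**Figure D1:**
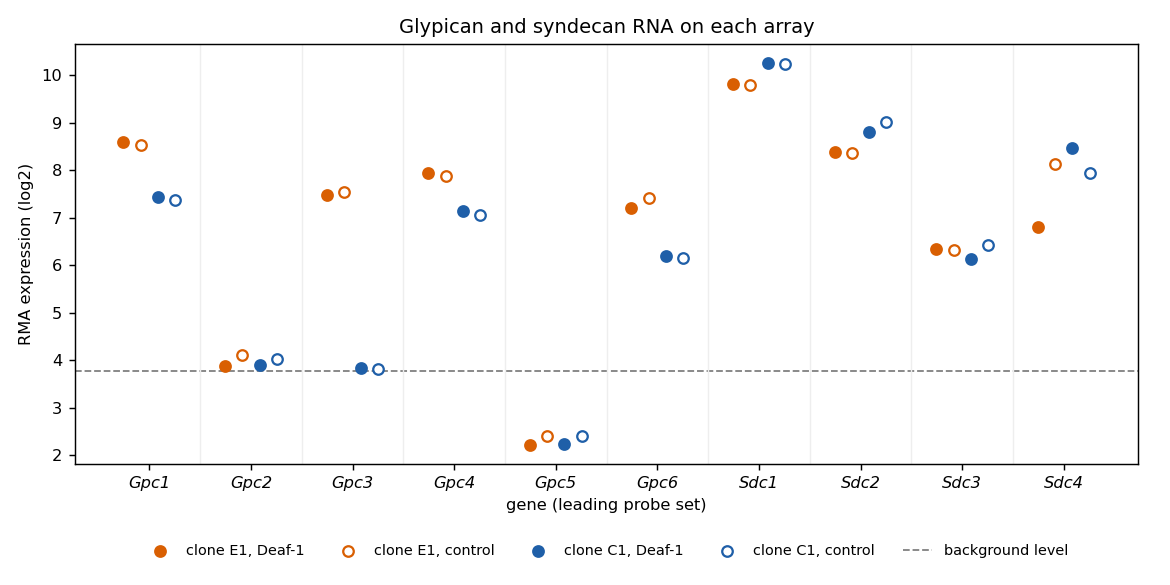
RMA expression (log2, vertical axis) of the leading probe set of each glypican and syndecan gene on the 4 arrays, with E1 in orange, C1 in blue, Deaf-1 filled, control open, and the background level of 3.77 dashed. Heights can be compared within a gene only. Gpc3 stands near 7.5 in E1 and at the background level in C1, and Sdc4 has 1 low array, that of E1 with Deaf-1.

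Gpc3, a glypican that restrains Hedgehog signalling and whose human counterpart is mutated in an overgrowth syndrome, differed most. Its single probe set (1450990_at) read 7.48 with Deaf-1 and 7.55 with control in E1, against 3.83 and 3.81 in C1. Both C1 arrays lay close to the background level of 3.77, while both E1 arrays stood far above it. The clone means were 7.51 ± 0.051 in E1 and 3.82 ± 0.014 in C1 (SD over the arrays of both retroviruses, n = 2 each), a difference of 3.70, or 13.0-fold. Only 11 of 23680 probe sets above background in a clone had a larger difference in this direction. As C1 was at background, the fold depends on where RMA places background.

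Gpc4 lies next to Gpc3 on the X chromosome. This glypican acts with fibroblast growth factors and bone morphogenetic proteins. Its leading probe set (1421088_at) read 7.95 with Deaf-1 and 7.88 with control in E1, against 7.14 and 7.06 in C1, a 1.76-fold difference (0.81). A second probe set (1436514_at) read 6.46 and 6.49 in E1 against 5.88 and 5.89 in C1, a 1.51-fold difference (0.59). Both thus gave E1 above C1 on every array, at under 2-fold. Neither probe set reached the 13.0-fold of its neighbour. The 4 nearest protein-coding genes on each side of the pair, among them Hs6st2 (0.32), Mbnl3 (0.50), Phf6 (-0.035) and Hprt (0.074), had differences of -0.065 to 0.50. Only Hs6st2, Mbnl3, Phf6 and Hprt of these were above background, and the other 4 genes were below it on every array.

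Gpc1, a broadly expressed glypican that helps fibroblast growth factors bind their receptors, was higher in E1. Its only probe set (1417389_at) read 8.60 with Deaf-1 and 8.53 with control in E1, against 7.43 and 7.37 in C1. The clones were 1.17 apart, or 2.24-fold, and the arrays of a clone differed by 0.072 in E1 and 0.057 in C1. The spread within each clone was thus small beside the difference.

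Gpc6, a glypican of the growing skeleton, was read by 5 probe sets that did not behave alike. The leading one (1428774_at) read 7.20 with Deaf-1 and 7.41 with control in E1, against 6.19 and 6.15 in C1, a 2.20-fold difference. The next (1419688_at) read 6.14 and 6.92 in E1 against 5.53 and 5.46 in C1, and 1437417_s_at 5.36 and 5.80 against 4.46 and 4.10. These 3 probe sets had the clones apart, by 1.14, 1.04 and 1.30. At 1419689_at the arrays of the clones overlapped (4.44 and 4.66 in E1, 3.99 and 4.45 in C1), and 1441438_at was below background on all 4 arrays.

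Gpc5, the neighbour of Gpc6 on chromosome 14, was below background throughout. Its probe set (1457536_at) read 2.22 with Deaf-1 and 2.39 with control in E1, against 2.23 and 2.41 in C1. Gpc2, known from developing neurons, was just above background at 1429293_at, with 3.87 and 4.11 in E1 against 3.90 and 4.03 in C1, and the clones overlapped. A further probe set (1435606_at) is annotated with both Gpc2 and Gal3st4 and was not counted. It read 5.93 and 6.34 in E1 against 6.29 and 6.37 in C1.

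**Figure D2:**
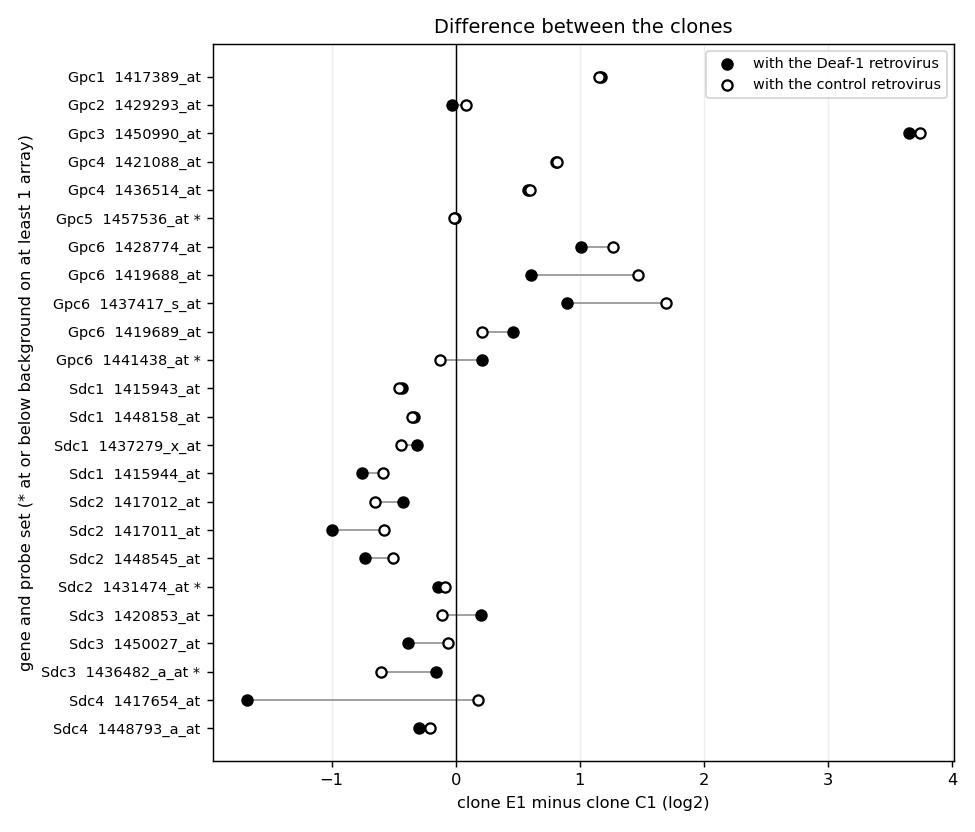
Difference between clones, E1 minus C1 (log2, horizontal axis), for all 24 probe sets, computed from the Deaf-1 arrays (filled) and from the control arrays (open), with a line joining them. Most glypicans extend to the right, to 3.74 for Gpc3, while Gpc2, Gpc5 and Gpc6 (1441438_at) lie around 0. Most syndecans lie left of 0, and the longest line is that of Sdc4 (1417654_at), from -1.68 to 0.18.

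Sdc1, the epithelial syndecan, was lower in E1 at all 4 of its probe sets. The leading one (1415943_at) read 9.83 with Deaf-1 and 9.79 with control in E1, against 10.26 and 10.25 in C1, so that C1 was 1.36-fold higher. The others were 1448158_at, 1437279_x_at and 1415944_at, with differences of -0.35, -0.38 and -0.67. The clones did not overlap at any of them, and C1 was 1.27-fold to 1.59-fold higher.

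Sdc2, the syndecan most typical of fibroblasts and other mesenchymal cells, was also lower in E1. Its leading probe set (1417012_at) read 8.38 with Deaf-1 and 8.36 with control in E1, against 8.81 and 9.01 in C1. At 1417011_at the values were 7.83 and 7.95 in E1 against 8.83 and 8.53 in C1, a 1.73-fold difference in favour of C1, and at 1448545_at they were 7.14 and 7.21 against 7.87 and 7.71. The clones were apart at these 3 probe sets. The probe set 1431474_at was below background on all 4 arrays.

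Sdc3, a syndecan known mainly from neurons and muscle precursors, showed no steady difference between the clones. At its leading probe set (1420853_at) it read 6.34 with Deaf-1 and 6.31 with control in E1, against 6.14 and 6.42 in C1, with the clones overlapping. At 1450027_at it read 5.89 and 5.68 in E1 against 6.28 and 5.74 in C1, again overlapping. At 1436482_a_at the clones were apart by a gap of 0.16, at values of 3.51 to 4.11 that straddle the background level.

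Sdc4, the syndecan of focal adhesions, which activates protein kinase C alpha, had 2 probe sets that differed in what they read. The leading one (1417654_at) read 6.80 with Deaf-1 and 8.14 with control in E1, against 8.48 and 7.95 in C1. Here 1 array, E1 with Deaf-1, was low, and the other 3 lay between 7.95 and 8.48. The second probe set (1448793_a_at) read 6.80 and 6.95 in E1 against 7.09 and 7.16 in C1, and its E1 array with Deaf-1 did not stand apart in this way. The clones overlapped at the leading probe set and were apart by a gap of 0.14 at the second.

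The study's own comparison asks which RNAs change when Deaf-1 is returned to cells that lack it. In a new fit of that comparison, not identical to the paper's, no glypican or syndecan probe set was called as higher or lower with Deaf-1. In limma's fit across all probe sets, with clones as replicates, 0 of 24 reached an unadjusted p under 0.01, where 0.0111% of all probe sets did, and 0 reached one under 0.05, where 0.433% did. With clone as a block 0 of 24 reached 0.05 as well, where 0.875% of all did. The adjusted p was 1 for each of the 24 in both fits. Of the 24, 6 were higher in both clones, 6 were lower in both and 12 moved in opposite directions. Over all 45037 probe sets, 8501 were higher in both clones, 9220 were lower in both and 27310 differed in sign. Opposite movement was thus no trait of the members. Over the leading probe sets the change, Deaf-1 minus control, ran from -0.41 (Sdc4) to 0.069 (Gpc4).

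For Gpc3 the mean was 5.65 ± 2.58 with Deaf-1 and 5.68 ± 2.64 with control (SD, n = 2 clones each), since each group holds 1 array at background and 1 far above it. The change of -0.026 had a 95% interval of -4.62 to 4.57 without the block and of -0.42 to 0.37 with it. With the block, the intervals of all leading probe sets other than that of Sdc4 lay within -0.58 and 0.46. These intervals rest on 1 residual degree of freedom and on limma's shared prior, and they bound little for Gpc5, which was below background on all 4 arrays, or for Gpc2 and the C1 arrays of Gpc3, which were close to it. For Gpc1 the change was 0.064 (0.072 in E1 and 0.057 in C1), and for Gpc4 (1421088_at) it was 0.069 (0.064 in E1 and 0.074 in C1).

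Sdc4 (1417654_at) had the widest change of any member in 1 clone. With Deaf-1 it was lower in E1 by 2.53-fold and higher in C1 by 1.44-fold, so that the mean change of -0.41 (standard error 0.58, limma unadjusted p = 0.51) had a 95% interval of -1.94 to 1.12. Without the Deaf-1 array of C1 the change was -1.25, at an unadjusted p of 0.0063 and an adjusted p of 0.96 from limma. That fit sets the single E1 array with Deaf-1 against both control arrays. The second probe set (1448793_a_at) changed by -0.16 in E1 and -0.070 in C1.

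Gpc6 also moved in opposite directions at 1437417_s_at, at -0.44 in E1 and 0.36 in C1. At 1419688_at the changes were -0.78 in E1 and 0.075 in C1, and at its leading probe set -0.21 and 0.048, with little change in C1. At 1419689_at, also above background on all 4 arrays, Gpc6 was lower with Deaf-1 in both clones, by -0.22 in E1 and -0.46 in C1. The lowest p among members was that of Gpc6 at 1441438_at (0.36, limma unadjusted p = 0.084), which lay below background on all 4 arrays. Among probe sets above background on all 4 arrays it was that of Sdc3 at 1450027_at, which read 0.21 higher in E1 and 0.53 higher in C1 with Deaf-1 (0.37, limma unadjusted p = 0.11). The leading Sdc3 probe set did not show this, with 0.030 in E1 and -0.28 in C1.

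**Figure D3:**
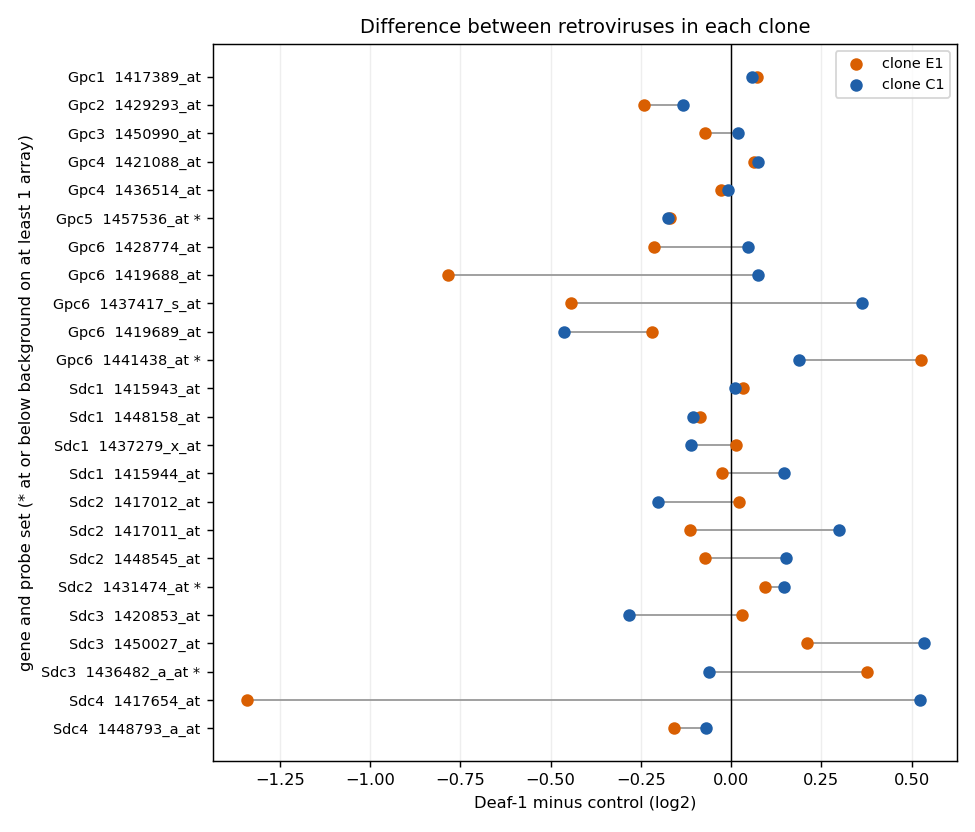
Difference between retroviruses, Deaf-1 minus control (log2, horizontal axis), in clone E1 (orange) and clone C1 (blue) for all 24 probe sets, with a line joining the clones. Most points lie within 0.5 of 0, and Sdc4 (1417654_at) reaches -1.34 in E1 and 0.52 in C1.

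Genes that act on the chains or bind the cores were taken from lists with 53 genes, of which 50 had a probe set (Xylt1, Ndst1 and Hs3st5 had none under 1 symbol). With Deaf-1, 0 of 50 reached an unadjusted p under 0.01 or 0.05 in the limma fit, where 0.0111% and 0.433% of all probe sets did. The lowest p were those of Xylt2, which starts the linkage sugar (0.29, limma unadjusted p = 0.11), and Sdcbp2, a relative of syntenin (0.34, limma unadjusted p = 0.13), each higher in both clones. Sdcbp2 read 3.60 to 4.20, close to the background level, with the control array of E1 below it. Between the clones, 2 of 50 were at least 2-fold higher in E1 and 3 were at least 2-fold lower, by the same rule as for the members. Over all probe sets these shares were 1.24% and 1.41%, and among the 23680 above background in a clone the counts were 560 and 633. Of the 3, Tiam1 was no longer at 2-fold without the Deaf-1 array of E1 (-0.70) or that of C1 (-0.99). The median difference of the 50 was 0.021.

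Among 22 measured enzymes that build and sulfate the chain, Hs6st1, which adds sulfate at the 6-O position, was higher in E1. It read 8.08 with Deaf-1 and 8.0 with control in E1, against 6.81 and 6.90 in C1 (2.27-fold). Hs3st1, which adds the rare 3-O sulfate, was lower, with 7.34 and 7.46 in E1 against 8.61 and 8.46 in C1 (C1 2.20-fold higher). Both were apart by about 1 log2 unit with a small spread within each clone. Hs2st1, which sulfates the uronic acid, and Glce, the epimerase that prepares it, differed by -0.58 and -0.45 at their leading probe sets. At another Hs2st1 probe set (1422739_at) the values were 4.40 and 5.15 in E1 against 6.12 and 5.61 in C1 (-1.10). The clones did not overlap there, and their means differed by more than 2-fold, but the control arrays alone by less. The polymerase subunits Ext1 and Ext2 differed by 0.033 and -0.23.

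Of 10 genes for remodelling of chains and shedding of cores, Sulf2, an extracellular enzyme that removes 6-O sulfate, was higher in E1. It read 10.05 with Deaf-1 and 10.09 with control in E1, against 8.84 and 8.39 in C1 (2.74-fold), and 1.70 higher at 1430388_a_at, but at 1442408_at it was -0.18. Its relative Sulf1 was 0.81 higher and Mmp14, a membrane protease that sheds Sdc1, was 0.80 higher. Adam10, another sheddase, was 0.70 lower on the log2 scale (-0.70) at its leading probe set. At 1450104_at and 1450105_at, also above background, it differed by -0.25 and -0.42.

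Of 11 cytoplasmic partners of the syndecans, Fyn, a kinase of the Src family, was lower in E1, with 7.73 with Deaf-1 and 7.86 with control in E1 against 9.11 and 9.33 in C1. C1 was 2.68-fold higher, and the second Fyn probe set (1448765_at) gave -2.07. Tiam1, an exchange factor for Rac that binds the Sdc1 tail, read 3.43 and 4.33 in E1 against 5.20 and 4.87 in C1, with 1 E1 array below background. Cask, a scaffold, was 0.49 higher at its leading probe set and -0.52 at another, and Sdcbp, the gene of syntenin, differed by -0.046. Of 7 other heparan sulfate proteoglycans 0 reached 2-fold at the leading probe set. Col18a1 was 0.85 higher in E1, and 1.07 higher at 1418237_s_at, which was past 2-fold, and Cd44 was 0.58 lower (-0.58).

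**Figure D4:**
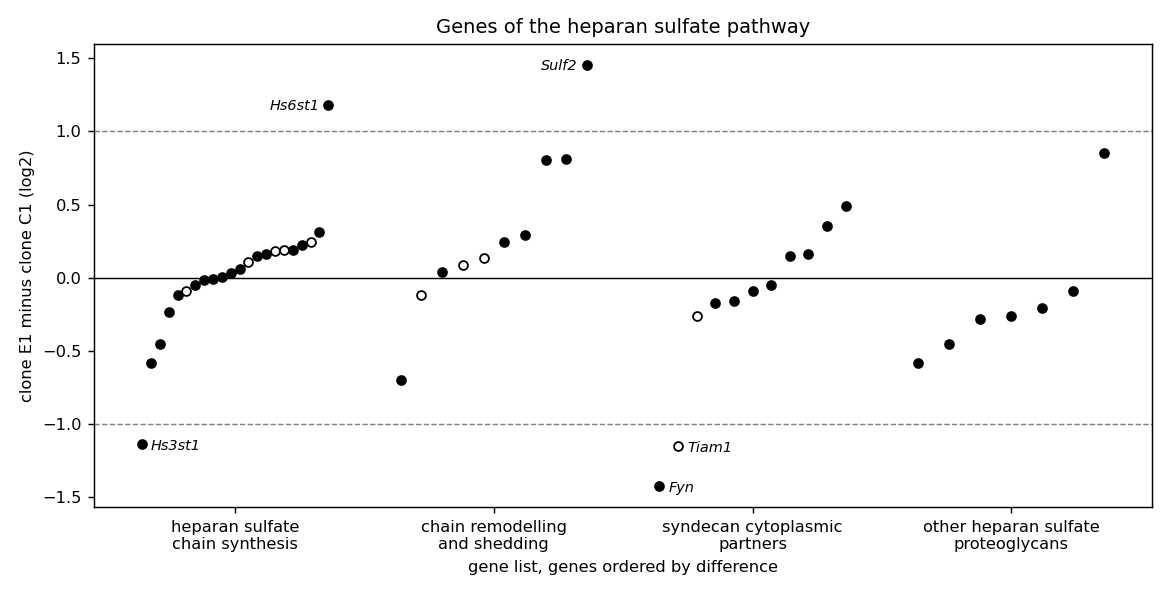
Difference between clones, E1 minus C1 (log2, vertical axis), of the leading probe set of 50 genes in 4 lists, ordered within each list, with dashed lines at 2-fold. Open points lay at or below background on at least 1 array. Hs6st1 and Sulf2 lie above the upper line and Hs3st1, Fyn and Tiam1 below the lower one.

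Among the listed cell type markers, only Fabp4 and Krt7 met the 2-fold rule between the clones, both with E1 higher. The luminal marker Krt7 read 4.41 with Deaf-1 and 4.10 with control in E1, against 2.92 and 2.86 in C1, below background. Fabp4, a lipid carrier of adipocytes, read 10.56 with Deaf-1 and 10.59 with control in E1, against 3.77 and 2.57 in C1, while Adipoq was below background on all 4 arrays and Lpl differed by -0.27. Of 8 mesenchymal markers 0 met the 2-fold rule. The clones were apart at 5 of them with E1 higher and at 2 with E1 lower, among them Pdgfrb (0.83), Zeb1 (0.77) and Cdh2 (-0.89). Among all probe sets above background on 4 arrays, 27.6% were apart with E1 higher and 33.4% with E1 lower. The mean log2 level of the list was 10.64 to 10.70 in E1 and 10.46 to 10.54 in C1. Of 3 endothelial markers Kdr was above background on all 4 arrays (4.20 to 4.24), and Pecam1 and Cdh5 were below it on all 4. Of 3 leukocyte markers Cd14 was above background on all 4 arrays (4.27 to 4.64), Cd68 on 1 and Ptprc on 0. The part of these differences in those of the glypicans and syndecans was not tested.

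By Euclidean distance over the 4 arrays, after each probe set was centred on its own mean, the patterns most like that of Gpc3 among 21297 named probe sets above background in a clone were those of Ccnd1 (1417420_at, distance 0.17), Hoxa11 (1420414_at, 0.19) and Pparg (1420715_a_at, 0.24). Their E1 arrays read 6.53 to 7.25 and their C1 arrays 2.95 to 3.41, below background, so that neither the size of the difference nor the order of likeness is fixed by these values. With 4 arrays this likeness amounts to a high value in E1 and a low value in C1.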

How the data were processed

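RNA of 4 cultures was hybridized to Affymetrix mouse arrays, 1 each. The values deposited by the authors are log2 expression made with RMA, which corrects background, equalises array distributions and summarises each probe set, and RMA and limma are listed without versions in the submitters' processing notes. Of 45101 probe sets, 64 controls were dropped. Gene symbols came from the platform annotation, where 34945 probe sets had 1 symbol, and all 10 member symbols matched RefSeq by gene identifier. Levels are compared within a probe set only.

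The effect of Deaf-1 was fitted with limma 3.58.1 (R 4.3.3, lmFit and eBayes) on 45037 probe sets with 2 residual degrees of freedom. Tests were two-sided, and p-values were adjusted by Benjamini-Hochberg over the whole array. A call needed an unadjusted p under 0.01, the limit used in the paper. The fit itself is not identical to the paper's. For Deaf1 the change was the same, but the paper printed a smaller p. Here 5 of 45037 probe sets passed the limit, 0 of them lower with Deaf-1, while the paper lists genes in both directions. Cultures of 1 clone form a pair, so clone as a block was an alternative (correlation of deviations from the group means within a clone, 0.54). Separate animals are not stated for the clones, and the paper's results describe both as taken from cells of a single mouse. The p-values thus measure only the spread between these arrays, whose number limits precision. The background level is the 95th percentile of olfactory receptor probe sets.

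Members and gene lists were chosen with earlier results of these data known. All member probe sets are described. From each list at most 4 genes were named by their difference between clones and at most 2 by moderated t. The genes Ext1, Ext2 and Sdcbp were added after their values were seen. Alternatives were the block, 1 array left out, cyclic loess, a background filter, an intensity trend, arrays of 1 retrovirus, a 1.5-fold limit and probe sets without _x_at or _s_at names.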

Additional observations from a re-analysis of the deposited data

Results flagged for a closer look

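Sdc4 (1417654_at) and Gpc6 (1437417_s_at) moved in opposite directions with Deaf-1 in the clones, by at least 0.2 in each, a limit set after the data were seen. The change in E1 minus that in C1 was -1.87 for Sdc4 and -0.80 for Gpc6. With 1 pair of arrays per clone this difference was not tested. Of 20899 probe sets above background on all 4 arrays 3347 met the same rule, against 2 of 20 (10%) such member probe sets. For Sdc4 16 of the 20899 had a larger absolute difference, and for Gpc6 1698 had.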

How the results depend on the processing

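The count of 0 members called with Deaf-1 held with clone as the replicate block (0), cyclic loess, a background filter (21 member probe sets left) and an intensity trend, and ranged from 0 to 1 when 1 array was left out, the 1 being Sdc4 without the Deaf-1 array of C1. The count for the 50 listed genes measured was 0 in each of these. The count of members at least 2-fold apart between the clones was 5 with each array left out, but without either control array these were 4 glypican probe sets higher and Sdc4 (1417654_at) lower in E1. Cyclic loess and control arrays alone gave the original 5, with Sdc4 at 0.18 in the control arrays. Deaf-1 arrays alone gave 4, Gpc1, Gpc3, Gpc6 (1428774_at) and, lower, Sdc4 (-1.68). Without _x_at and _s_at sets it was 4, all glypicans. At 1.5-fold it was 10, 7 glypican sets higher and 3 syndecan sets lower (Sdc1 1415944_at, Sdc2 1417011_at and 1448545_at). Control arrays alone left Fyn as the 1 listed gene lower, with Tiam1 at -0.53 and Hs3st1 just short of 2-fold at -0.998. No member or named list gene that was 2-fold apart with all 4 arrays changed sign. Sdc4 (1417654_at), 2-fold lower in E1 only in some of these settings, did change sign in the control arrays alone. The change of Gpc4 (1436514_at) with Deaf-1 was 0.0034 after cyclic loess, against -0.019. With 1 array left out a group holds 1 clone, so changes with Deaf-1 carry the difference between clones and several changed sign. For Gpc1 the range was -0.52 to 0.65 (1417389_at). For Gpc3 the range was -1.90 to 1.84 (1450990_at). For Gpc4 the range was -0.34 to 0.48 (1421088_at) and -0.32 to 0.28 (1436514_at). For Gpc6 the range was -1.09 to 0.38 (1419688_at) and -0.72 to 0.55 (1428774_at) and -0.89 to 0.81 (1437417_s_at). For Sdc1 the range was -0.21 to 0.25 (1415943_at) and -0.32 to 0.44 (1415944_at) and -0.27 to 0.17 (1437279_x_at) and -0.27 to 0.083 (1448158_at). For Sdc2 the range was -0.40 to 0.59 (1417011_at) and -0.42 to 0.23 (1417012_at) and -0.32 to 0.40 (1448545_at). For Sdc3 the range was -0.14 to 0.46 (1436482_a_at). For Sdc4 the range was -1.25 to 0.43 (1417654_at) and -0.26 to 0.033 (1448793_a_at). The number of arrays limits what can be detected, and values near background say little of the RNA. The counts of 0 called with Deaf-1 also say little, as 0.0111% of all probe sets passed the limit without the block.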
